A study of Drosophila melanogaster with 2 samples.

Results

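Deep intronic summits are the reproducible peaks of the Ets96B-eGFP chromatin immunoprecipitation (ChIP-seq) whose summit lay inside a transcript of a protein-coding gene, in no exon of such a gene, and more than 5000 bp from the nearest protein-coding transcription start site (TSS). The rule used position only and no measured value. It took 1544 of the 8015 reproducible summits. Of these, 1509 lay in 1 gene and 35 lay in introns of 2 or 3 overlapping genes, so that there were 1578 pairs of a summit and a host gene. The working name for these summits speaks of long genes, and host length ran from 8.18 kb to 394 kb with a median of 55.9 kb over the 1544 members. Each summit counts once in this median, so genes with more deep intron weigh more in it, and it does not show a preference for long genes.

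Both libraries came from 1 group: whole Drosophila melanogaster prepupae, both sexes pooled, with an age of 24 h in the labels, from a transgenic line that carries Ets96B with green fluorescent protein at its C terminus. The precipitation used an antibody against GFP, while another label names Ets96B as the antibody. The labels number the libraries as biological replicates 2 and 3. Whole animals mix all tissues, and a summit cannot be assigned to a cell type. A control alignment entered the authors' peak calls, and no library of another genotype or stage was analysed here. Each deposited replicate list held 30000 peaks, so their length carries no information on depth, and read depth is unknown.

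Ets96B is a transcription factor of the ETS family, whose members share a winged helix-turn-helix domain that reads a GGAA core, and it is related to the vertebrate PEA3 group. In flies, ETS factors such as Pointed and Anterior open (Yan) carry signals of receptor tyrosine kinases and the Ras and MAP kinase cascade to their target genes. Long introns of fly genes often hold enhancers, and developmental regulators have many of them.

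The sequences at the strongest members show what these sites look like. Each line gives the plus strand of the RefSeq copy of dm6 from 50 bp below to 50 bp above the summit, 5' to 3'. The first 4 are the strongest members, and their capitals mark, on either strand, any of the 10 six-letter words with the highest ratio of their share at members to that in the flanks. The word ATACTA was found at 8.10% of members, the word CTATTA at 8.61%, the word ATATTA at 23.1%, the word TACTAA at 8.74% and the word AGTATA at 9.33%. The word TTTAAA was found at 22.4%, the word ATAGTA at 8.16%, the word ATCTTA at 10.9%, the word CTAATA at 9.46% and the word AATATT at 18.8%. The flanks held these at 1.75% to 5.54% and all deep intronic windows of that length at 3.52% to 10.5%. These words were picked from the members themselves, so the capitals are a description.
osa, first summit, chr3R:17704355-17704455: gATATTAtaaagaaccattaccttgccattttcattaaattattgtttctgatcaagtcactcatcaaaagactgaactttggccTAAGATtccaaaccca
osa, second summit, chr3R:17700537-17700637: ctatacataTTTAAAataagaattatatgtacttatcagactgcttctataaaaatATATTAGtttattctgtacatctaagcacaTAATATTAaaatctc
dpp, chr2L:2433596-2433696: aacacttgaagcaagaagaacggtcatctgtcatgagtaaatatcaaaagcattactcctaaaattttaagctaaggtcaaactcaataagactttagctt
CG32486, chr3L:3060761-3060861: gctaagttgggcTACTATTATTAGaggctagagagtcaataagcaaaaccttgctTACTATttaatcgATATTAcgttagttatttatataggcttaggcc
osa, first summit, window centred 300 bp below: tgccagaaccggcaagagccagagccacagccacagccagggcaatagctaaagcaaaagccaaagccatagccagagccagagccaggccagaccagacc
osa, first summit, window centred 300 bp above: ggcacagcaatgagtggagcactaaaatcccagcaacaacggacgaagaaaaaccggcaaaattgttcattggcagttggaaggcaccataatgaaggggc
The dpp window held none of the 10 words. The G+C content was 32.7%, 20.8%, 32.7% and 34.7% in the 4 summit windows in the order shown. In the windows 300 bp to either side of the first osa summit it was 59.4% and 48.5%.

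The next lines show, with the word in capitals, a strong member that holds the homeodomain core TAATTA and 2 strong members that hold an ETS word. The ETS word was GGAA preceded by CA or CC and followed by A or G, on either strand.
Hr4, homeodomain core, chrX:1947704-1947804: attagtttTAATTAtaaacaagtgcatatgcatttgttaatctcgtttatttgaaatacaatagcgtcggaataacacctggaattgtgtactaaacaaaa
lilli, ETS word, chr2L:2924510-2924610: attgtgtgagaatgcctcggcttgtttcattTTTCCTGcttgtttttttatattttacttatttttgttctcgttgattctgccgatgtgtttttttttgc
Bicra, ETS word, chr3R:29094313-29094413: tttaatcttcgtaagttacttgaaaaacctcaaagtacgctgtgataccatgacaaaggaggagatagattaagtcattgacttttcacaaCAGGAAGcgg
Hr4 encodes a nuclear receptor of the ecdysone response, and lilli encodes a nuclear protein of the AF4 family. The lilli summit was number 958 of 8015 by the authors' signal value and the Bicra summit number 1834.

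Deep intronic summits made up 19.3% of the reproducible list (exact Clopper-Pearson 95% interval 18.4 to 20.1). Deep intronic sequence was 30.2 Mb, or 22.6% of the 6 arms. When the same rule was applied to the 8015 strongest peaks of each replicate alone, it took 1479 peaks of replicate 2 (18.5%) and 1556 of replicate 3 (19.4%). The density was 51.1 summits per Mb (exact Poisson 95% interval 48.6 to 53.8), with 49.0 in the replicate 2 list and 51.5 in the replicate 3 list. Intronic sequence 500 to 5000 bp from a TSS held 89.8 summits per Mb, promoter sequence within 500 bp of a TSS held 160 and intergenic sequence 45.2. All intervals here cover counting error only. With 1 group of 2 libraries the design holds no comparison between samples, and no p-value is given.

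The authors' signal value of the members had a median of 277, with quartiles of 197 and 464 and a highest value of 3995. The median over all other reproducible summits was 297, and the ratio of the medians was 0.933, with 0.949 in the replicate 2 list and 0.925 in the replicate 3 list. Members were fewer among the strongest summits. They were 7 of the strongest 100 (7%, interval 2.86 to 13.9) and 65 of the strongest 500 (13%, 10.2 to 16.3), against 96 of the weakest 500 (19.2%, 15.8 to 22.9). In replicate 2 the strongest 500 peaks held 58 such summits, and in replicate 3 they held 66. Of the 21985 pooled peaks outside the reproducible list, 23.2% were deep intronic.

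Most members had a summit within 100 bp in both replicates. The peak interval of 1525 members (98.8%) overlapped a peak in both replicate lists, a share that is largely set by how a reproducible list is made. A summit within 100 bp was present in both lists for 94.9%. For overlapping peaks, the median distance between the summits of the replicates was 24 bp, and 78.1% lay within 50 bp. When 50% of both peaks had to overlap, the share was 66.2%. Near intronic summits gave 98.9%, 95% and 70.0% by the same measures.

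The 10 strongest members lay in osa (with 2 of them), dpp, CG32486, CG42238, dnr1, trx, tara, Raf and Hr4. The strongest had a signal value of 3995 and was number 14 of the reproducible list, number 20 in replicate 2 and number 11 in replicate 3. It lay in an intron of osa, which encodes a subunit of the Brahma chromatin remodelling complex, 13945 bp from the nearest TSS and 3366 bp from the nearest exon, with its summit at 17704405 of 3R. The second osa summit had a value of 2664 and lay at 17700587. The member of dpp, a ligand of the BMP family, had a value of 2484, was number 131 in replicate 2 and number 56 in replicate 3, and lay 5274 bp from the TSS in an intron of 26006 bp. The summit in trx, which encodes a histone H3 lysine 4 methyltransferase, had a value of 2292. The summit in tara, a nuclear regulator of the trithorax group, had 2201, and the summit in Raf, the kinase between Ras and MEK, had 2182. The CG42238 summit had a value of 2470 and lay 40560 bp from the nearest TSS.

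Around the limit of the rule, summits in Pdk, shep and bbg lay 5009, 5014 and 5019 bp from a TSS and were members, with signal values of 226, 1243 and 245. Summits in tara, cno and boi lay 4992, 4994 and 4999 bp from a TSS and were not, with values of 457, 401 and 360.

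Over all introns together, the density of summits was lower with each step away from a TSS. It was 127 per Mb at 500 to 1000 bp, 93.6 at 1000 to 2000 bp and 75.5 at 2000 to 5000 bp. Beyond the limit it was 67.9 (63.0 to 73.0) at 5 to 10 kb, 61.0 (55.9 to 66.3) at 10 to 20 kb, 46.7 (41.2 to 52.8) at 20 to 50 kb and 3.36 (1.95 to 5.37) beyond 50 kb. The replicate lists gave 68.1 and 68.3 at 5 to 10 kb and 2.96 and 3.36 beyond 50 kb. The last value rests on 17 summits in 5.07 Mb. The order did not hold at each step within every class of host length: in hosts of 50 to 100 kb the density was 72.0 at 2 to 5 kb, 68.4 at 5 to 10 kb, 69.6 at 10 to 20 kb and 63.1 at 20 to 50 kb, with intervals that overlap. Outside 500 kb windows with at least 25% masked bases these were 71.4, 70.5, 72.4 and 70.8. In hosts of 100 kb or more it was 68.4, 54.3, 49.2 and 31.9 at the same distances, and 3.46 beyond 50 kb. Outside those windows it was 71.8, 54.8, 54.2 and 37.3, and 56.0 (32.6 to 89.6) beyond 50 kb.

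Counting TSSs of non-coding genes as well gave 0.551 per Mb beyond 50 kb. The stronger part of the list, above its median, gave 1.38, but it has fewer summits over the same bases, which by itself lowers a density.

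Most of the sequence beyond 50 kb lay in windows that RefSeq masks heavily. Windows of 500 kb in which the RefSeq copy masks at least 25% of the bases held 25.2% of all deep intronic sequence (7.60 Mb) and 66 members, which is 8.68 per Mb, and no member in the 4.71 Mb beyond 50 kb. Outside those windows the density was 70.3, 65.2 and 56.3 per Mb in the first 3 steps and 47.4 (27.6 to 75.9) beyond 50 kb, now from 17 summits in 0.359 Mb. This definition was one of 9 and was chosen after the data were seen, and the value beyond 50 kb depends on it. With the masked share set at 20% or 30% it was 64.5 and 44.6, and with 100 kb windows at 25% it was 23.5. With windows defined instead by annotated transposable elements, in 500 kb windows at 10% or 20% or in 100 kb windows at 10%, 20% or 30%, it stayed between 3.53 and 6.32. Whether reads map less well in repeat-rich windows was not tested, since the files hold no reads.

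**Figure D1:**
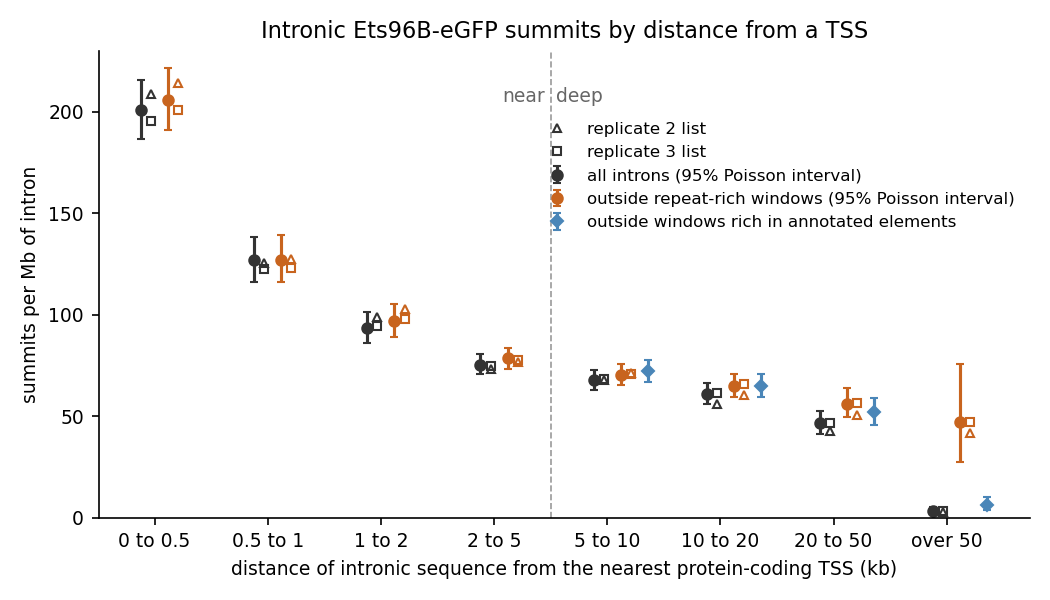
Reproducible intronic summits per Mb of intron (y axis) by distance of the sequence from the nearest protein-coding TSS in kb (x axis), in all introns, outside 500 kb windows with at least 25% masked bases, and, for deep sequence, outside 500 kb windows with at least 10% annotated transposable elements. Filled points have exact Poisson 95% intervals and open symbols give the 8015 strongest peaks of each replicate. Beyond 50 kb the 3 versions read 3.36, 47.4 and 6.32 per Mb.

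In an annotated transposable element lay 2 of the 1544 summits (0.130%, interval 0.0157 to 0.467), while such elements cover 8.77% of deep intronic sequence. Bases masked by RefSeq, which include simple repeats, were at 25.7% of members (23.5 to 28) against 25.3% of the sequence. Outside repeat-rich windows these were 25.1% (22.9 to 27.4) against 21.6%, where the interval leaves out the share of the sequence. By arm, the density was 62.5 per Mb on 2L, 61.7 on X, 51.9 on 3L, 44.3 on 2R and 44.2 on 3R. Arm 4 held no member in 0.288 Mb, which allows up to 12.8 per Mb, and the replicate 2 list had 1 there. Near introns of arm 4 were also poor, with 3 summits or 10.7 per Mb, against 80.1 to 106 on the other arms.

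First introns held more of the members than their length gives. An intron was counted as first when it followed the first exon of any protein-coding transcript. It held 752 members (48.7%, interval 46.2 to 51.2) against 30.9% of the deep intronic bases, with 48.9% and 49.0% in the replicate lists. Outside repeat-rich windows the density was 89.3 per Mb (82.9 to 96.0) in first introns and 52 (48.3 to 55.8) in other introns. The order held at each step up to 50 kb. It was 94.9 and 50.7 at 5 to 10 kb, 81.9 and 56.4 at 10 to 20 kb, and 87.1 and 47.2 at 20 to 50 kb. These steps held 416, 225 and 86 of the 727 summits in first introns. In other introns they held 279, 297 and 158 of 751. The summits beyond 50 kb thus lay in other introns, and the order did not hold there, where first introns have little sequence. These distances compare sequence equally far from any TSS. Within first introns, the intervals at 20 to 50 kb (69.7 to 108) and at 5 to 10 kb (86 to 104) overlap.

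Members came in groups along the chromosome, as summits of other classes did. A reproducible summit of any class lay within 1 kb for 26.4% of members and within 5 kb for 73.1%, and the median distance to the nearest was 2.07 kb. These shares were higher for near intronic summits (32.7% and 78.8%) and intergenic summits (34.4% and 75.7%). They were lower for promoter summits (21.9% and 62.2%). Joined across gaps of at most 5000 bp, the members formed 852 runs, of which 502 were single summits and 37 held 5 or more. The longest runs held 12 members, in sbb over 15.4 kb and in plum over 28.6 kb. Runs of 10 lay in Snoo over 23.1 kb and in Tis11 over 11.4 kb.

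A gene was eligible as a host when it had at least 1 kb of deep intronic sequence, and 511 of 1442 eligible genes held a member, a background of 35.4%. The share of hosts by gene length was 18.2% of 505 genes under 20 kb, 37.2% of 631 genes of 20 to 50 kb, 59.2% of 223 genes of 50 to 100 kb and 62.7% of 83 genes of 100 kb or more. The intervals of the last 2 classes (52.4 to 65.7 and 51.3 to 73.0) overlap, and the replicate lists gave 60.1% and 62.7% for these in replicate 2 and 57.4% and 56.6% in replicate 3, so that no rise was seen beyond 50 kb in the latter. The density per Mb of deep intron was 66.5, 63.7 and 65.9 in the first 3 classes, whose intervals overlap, and 25.7 (22.8 to 28.8) in the longest. The ratio of the longest class to that of 20 to 50 kb was 0.403, with 0.388 in replicate 2 and 0.381 in replicate 3. Without the genes that have 50% or more of their deep intron in masked repeat-rich windows, the longest class kept 64 genes, of which 78.1% were hosts, at 50.4 per Mb (44.6 to 56.7), and the ratio was 0.744.

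**Figure D2:**
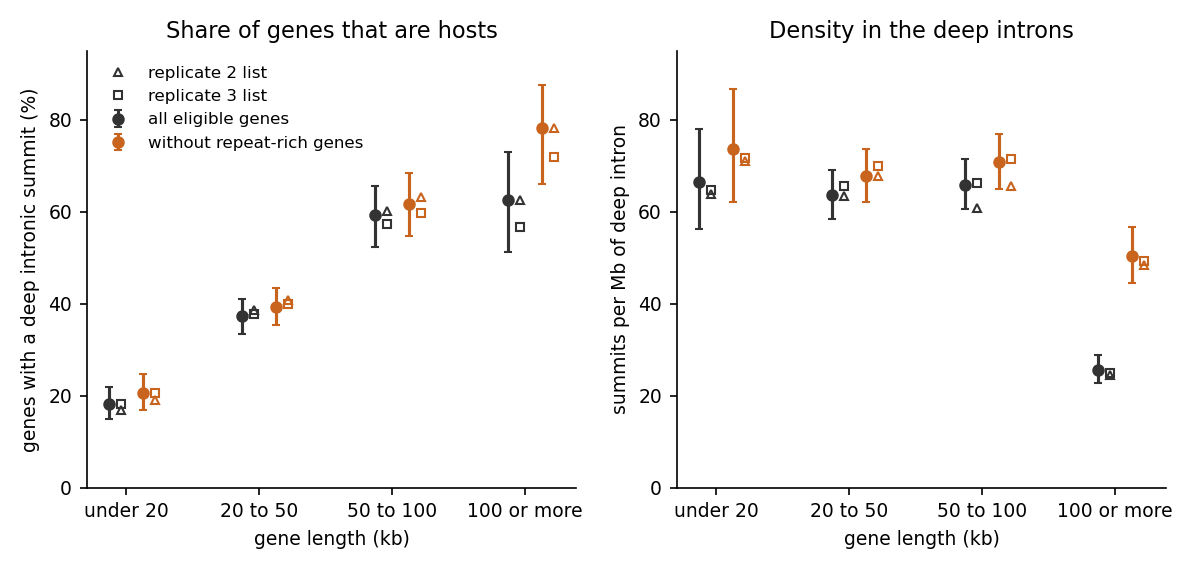
Percent of eligible genes that hold a deep intronic summit (left) and summits per Mb of deep intron (right) by gene length class in kb. Filled points are the reproducible list with exact 95% intervals, for all eligible genes and for those outside repeat-rich windows, and open symbols are the replicate lists. The share reads 18.2%, 37.2%, 59.2% and 62.7%, with intervals that overlap for the last 2 classes, while the density stays between 63.7 and 66.5 per Mb up to 100 kb and reads 25.7 above it.

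Of the 511 hosts, 198 held 1 member, 97 held 5 or more and 21 held 10 or more. The 97 hosts with 5 or more held 49.2% of all pairs. A summit within 500 bp of one of its own TSSs was present in 43.8% of hosts (39.5 to 48.3) and in 24.3% of the other eligible genes (21.6 to 27.2). The shares were 48.9% and 22.5% in genes under 20 kb, 42.6% and 27.5% at 20 to 50 kb, 39.4% and 19.8% at 50 to 100 kb, and 51.9% and 19.4% above. In the longest class outside repeat-rich windows they were 25 of 50 hosts and 6 of 14 others, with intervals that overlap. No promoter and no near intronic summit was found in 144 hosts (28.2%). That share was not taken for the other eligible genes, so it does not set hosts apart from them.

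The host with most members was Tet, which encodes a dioxygenase of the TET family, with 24 summits in 65.8 kb of deep intron, 21 in the replicate 2 list and 22 in the replicate 3 list. kirre, an immunoglobulin-type adhesion protein of myoblast fusion, held 23 in 234 kb, with 19 and 25 in the replicates. SKIP held 21, and Snoo, a regulator of TGF-beta type signalling, held 20. hth, the homeodomain partner of Hox proteins, held 17, with 11 and 19 in the replicates, so that its count differed most between them among these 10 hosts. fz, a Wingless and planar polarity receptor, held 15, with 10 and 16. The corepressor gene sbb, heca, mtgo and the immunoglobulin-type gene plum held 13 each. At the density of all genes of the same length class, 4.34 summits would lie in Tet, 6.0 in kirre and 2.76 in hth. With separate densities for repeat-rich and other genes these were 4.65, 11.8 and 5.41.

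**Figure D3:**
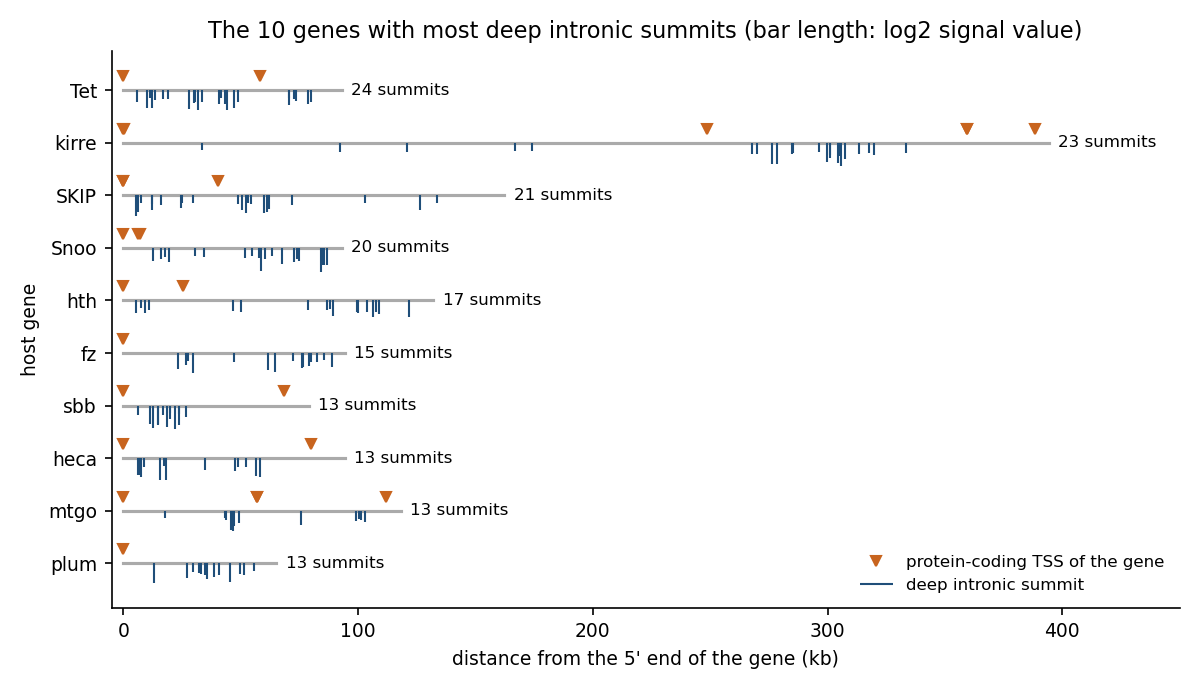
Deep intronic summits (bars, longer for a higher log2 of the authors' signal value) along the 10 hosts with most members, in kb from the 5' end of each gene, with the TSSs of the gene as triangles. The 24 summits of Tet spread over the gene, while most of the 23 of kirre lie in the part between its TSSs at 249 kb and 359 kb.

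The highest values per 100 kb of deep intron were ranked among hosts with at least 5 members. With this minimum, a gene with little deep intron enters only at a high value, so the ranking favours shorter genes. Over all eligible genes, the density was 66.5 per Mb under 20 kb, 63.7 at 20 to 50 kb and 65.9 at 50 to 100 kb. Tis11, a zinc-finger protein of mRNA decay, held 10 members in 12.5 kb (80.1 per 100 kb), with 5 in the replicate 2 list and 11 in the replicate 3 list. Mnt, the antagonist of Myc, held 8 in 10.9 kb (73.5), with 8 and 7 in the replicates. Its deep intron lies fully in masked repeat-rich windows. Length class and repeat status would give 0.245 members there, and length class alone 0.693. tara held 10 (62.0), sn, the actin-bundling protein fascin, 5 (54.3), and osa 8 (49.1). CG3726, the cell cycle factor gene E2f1, the Hippo pathway gene kibra, sbb and Tet followed, between 45.3 and 36.5 per 100 kb. All 10 had members in both replicate lists.

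Some of the largest genes held none. Myo81F has 1955 kb of deep intron, and Pzl, lovit, CG17684, DIP-lambda, Snap25, l(3)80Fg, Gprk1 and CG40470 have 699 kb to 139 kb. All 9 lie fully in masked repeat-rich windows, and none had even a weaker pooled peak there. bru3, an RNA-binding protein of the Bruno family, was the exception: 20.8% of its 250 kb of deep intron is masked, it held no member where its length class and repeat status would give 12.6 and its length class alone 6.42, and it held 9 weaker pooled peaks. Other eligible genes with under 25% masked bases and no member, listed by size after the values were seen, were the identical spans CG15465 and rg, Mur2B, nAChRalpha3, Gfrl, Dys, side-VI and vex, with 2 to 23 weaker pooled peaks each. dpr8 also has under 25% masked bases of its own, 24.1%, but lies fully in masked repeat-rich windows, where 0.211 members would be found by its length class and repeat status and 3.06 by its length class alone, and it held 10 weaker pooled peaks.

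Members were rich in A and T at the summit. The mean G+C content from 50 bp below to 50 bp above it was 30.9% ± 7.48 (SD over 1544 members), with 31.0% and 31.2% in the replicate lists. Windows centred 400 bp to either side had 44.8%, and the 290100 windows of that length that tile all deep intronic sequence had 40.3%. The summit was lower than the lower flank in 87.9% of members and lower than the upper flank in 87.6%. Along the profile, G+C peaked at 46.3% and 46.4% at 300 bp below and 200 bp above, and returned to 40.4% by 700 bp. Near intronic and promoter summits had 32.0% and 33.3% at the summit. By signal, the mean rose from 28.9% in the strongest 309 members to 32.6% in the weakest 308.

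The ETS word was present at 32 members (2.07%, interval 1.42 to 2.91), in 4.24% of the flanks (3.56 to 5.01) and in 4.55% of all deep intronic windows. The same letters read backwards without complement, a control of equal base content, gave 1.94%, 3.59% and 3.90%. The ratio to the flanks was 0.489 for the ETS word and 0.541 for its reverse. In 5 groups of 308 or 309 members, from strongest to weakest, the ETS word was at 2, 8, 6, 5 and 11 members. The intervals of the strongest (0.0785% to 2.32%) and weakest group (1.80% to 6.30%) overlap, and the counts between them are not in order. The homeodomain core TAATTA was at 148 members (9.59%, 8.16 to 11.2) against 5.47% of flanks and 7.25% of windows. Near intronic summits had it at 11.7%, promoter summits at 10.95% and intergenic summits at 11.9%, with intervals that overlap that of members. The GATA word, AGATAAG or TGATAAG, was at 57 members (3.69%, 2.81 to 4.76) against 1.94% and 2.36%. With flanks centred 1000 bp away, the ratio to the flanks fell from 1.75 to 1.17 for the homeodomain core. It fell from 1.9 to 1.36 for the GATA word and was 0.471 for the ETS word. The run AAAAAAAA was at 10.9% against 7.80% and 6.85%. Words lower at members included CACACACA, at 1.23% against 4.47% of flanks, the E-box CAGCTG, at 1.42% against 4.6%, and the E-box CACGTG, at 0.194% against 1.20%. The Scalloped, GAGA, Su(H) and Zelda words given below had ratios to the flanks of 0.628, 0.603, 0.588 and 0.286. For GAGA, Su(H) and Zelda the intervals of members and flanks overlap. GAGA, at 1.42% of members, was not lower than in all deep intronic windows (1.33%), and its ratio was 0.531 and 0.806 in the replicate lists. Scalloped, Su(H) and Zelda were lower than in those windows (4.81%, 1.29% and 0.414%). The ratio of the CAGCTG share to that in the flanks was 0.310, with 0.493 in the replicate 2 list (2.23% of its deep intronic summits) and 0.286 in the replicate 3 list. G+C content differed between summits, flanks and windows too, as given above, and its part in these shares was not tested.

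Among the other words, the promoter word GGTCACACT (Motif 1) was at 6 members and in no flank, and at 0.0483% of windows. TCAAGGTCA (Ftz-F1) and TGACGTCA (CRE) were at none, which allows up to 0.239% of members. The flanks held each at 0.0972% and the windows held them at 0.0472% and 0.127%, all below that limit. TGANTCA, the AP-1 word, was at 2.91% and CATTCC, the Scalloped word, at 3.5%. AGGTCA, the nuclear receptor half-site that Ftz-F1's word contains, was at 2.01%, and ATGCAAAT, the POU word, at 1.81%. GAGAGAG, the GAGA factor word, was at 1.42% and GTGGGAA, the Su(H) word, at 0.648%. Zelda's word CAGGTAG was at 0.130%, and the Grainyhead word ACCGGTT, the E-box CACGTG and the DRE word TATCGATA were at 3 members each. The flanks and windows held the words from TGANTCA on at 0.0972% to 5.57% and at 0.215% to 4.81%. Of 773 six-letter words at 5% or more of members or flanks, 436 were more frequent at members. The highest ratio was that of ATACTA, at 8.10% of members, 1.75% of flanks and 3.52% of windows. ATATTA was at 23.1%, 5.51% and 9.59%. The lowest was GCCCCC, at 0.583% of members and 5.15% of flanks.

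**Figure D4:**
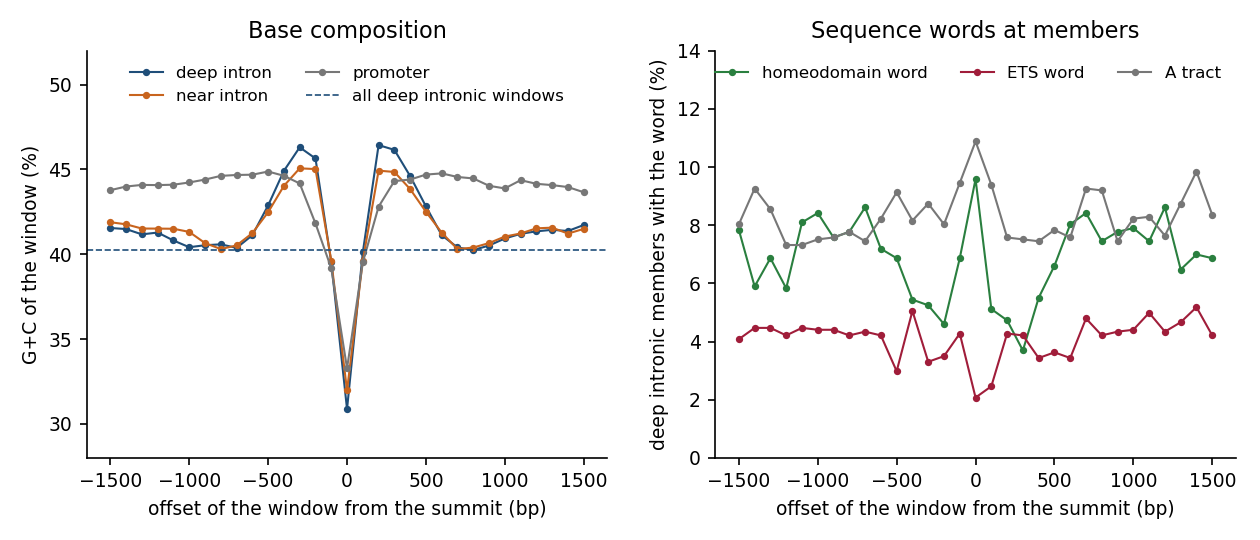
Mean G+C content of windows of 50 bp to either side of a point, by its offset from the summit in bp for deep intronic, near intronic and promoter summits, with the mean of all deep intronic windows as a dashed line (left), and the percent of deep intronic members whose window holds the homeodomain word, the ETS word or an A tract (right). G+C falls to 30.9% at the summit between shoulders of 46.3% and 46.4%, and the homeodomain word is at 9.59% there.

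The hosts were read against 13 gene lists, with the number of members expected when every gene has the density of its length class. These lists were drawn up with earlier results of these data known, and some name their strongest genes, so the counts describe and do not test. Of all eligible genes, 35.4% were hosts. Signalling ligands, receptors and feedback genes were hosts in 28 of 44 cases (63.6%, interval 47.8 to 77.6). They held 131 members against 50.1 expected and a median of 1.5 per gene, where the median of all eligible genes was 0. Snoo led with 20, followed by fz with 15 and ed, an immunoglobulin-type regulator of EGFR and Hippo signalling, with 12, and without Snoo the list still held 111. The replicate lists held 122 and 129. The largest members of the list without a summit were pan, the TCF of the Wingless pathway, and kek2.

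Nuclear receptors and ecdysone response genes were hosts in 12 of 14 cases (85.7%, 57.2 to 98.2), with 55 members against 23.1 and a median of 3. tai, a coactivator of the ecdysone receptor, held 10, Eip75B 9 and Eip74EF, itself an ETS factor gene, 7. Hr39 and dsf held none. Chromatin regulators were hosts in 7 of 13 cases (53.8%, 25.1 to 80.8), an interval that includes the 35.4% of all eligible genes. They held 51 members against 10.1, of which 24 lay in Tet, 11 in jing and 8 in osa. Without Tet, 27 remained. kis and Pc, with 3.79 kb and 3.32 kb of deep intron, held none.

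The other transcription factor lists were nearer to expectation. Homeodomain genes held 49 members against 37.3, of which 17 lay in hth, 6 in Antp and 5 in ct, and pb and zfh2, the latter on arm 4, held none. Zinc-finger and BTB genes held 51 against 34.6, with 9 in luna, 7 in bab1 and 6 in mamo. br, the Broad gene of the ecdysone cascade, held none in 44.0 kb, in the reproducible list or either replicate, and chinmo none in 27.5 kb. The bHLH and other factors held 24 against 17.7, with 7 in pnt, 4 in bi and 2 in aop, and none in Pdp1 and Sox102F. pnt and aop are the ETS factor genes named above.

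Ion channels and neurotransmitter receptors held the fewest members for the number expected among the 12 lists with at least 10 eligible genes. They had 5 members against 63.7 expected, and 7 and 5 in the replicate lists. Hosts were 4 of 36 genes (11.1%, 3.11 to 26.1), against 35.4% of all eligible genes. nAChRalpha6 held 2, mAChR-B 1 and Sh 1, and nAChRalpha3 and Ca-alpha1T none in 76.1 kb and 70.6 kb. Immunoglobulin cell recognition genes held 63 against 102, of which 23 lay in kirre, 10 in Fas3 and 6 in Fas2, while dpr8 and dpr21 held none, each with 119 kb of deep intron. Muscle and sarcomere genes held 2 members against 5.45, both in Zasp52, with none in bt and Msp300. Cuticle and terminal epidermal genes had 3 eligible members and 1 summit, in tyn, with none in qsm and Cpr50Cb.

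In number of members, the last lists lay near expectation or turned with the reference. Axon guidance and adhesion genes held 66 members against 62.3, with 8 each in ds and Sema1a, 6 in Ptp10D and none in Lar and Con. RNA-binding and splicing regulators held 38 against 39.9, with 5 each in pum and Rbfox1, 4 in msi and none in bru3 and bru2. When repeat-rich and other genes had separate densities, axon guidance genes had 0.794 of the expected number and RNA-binding genes 0.575. Cyclic nucleotide, small GTPase and kinase genes held 30 against 34.9, with 4 each in Abl, hppy and GEFmeso and none in rg and Pde1c.

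**Figure D5:**
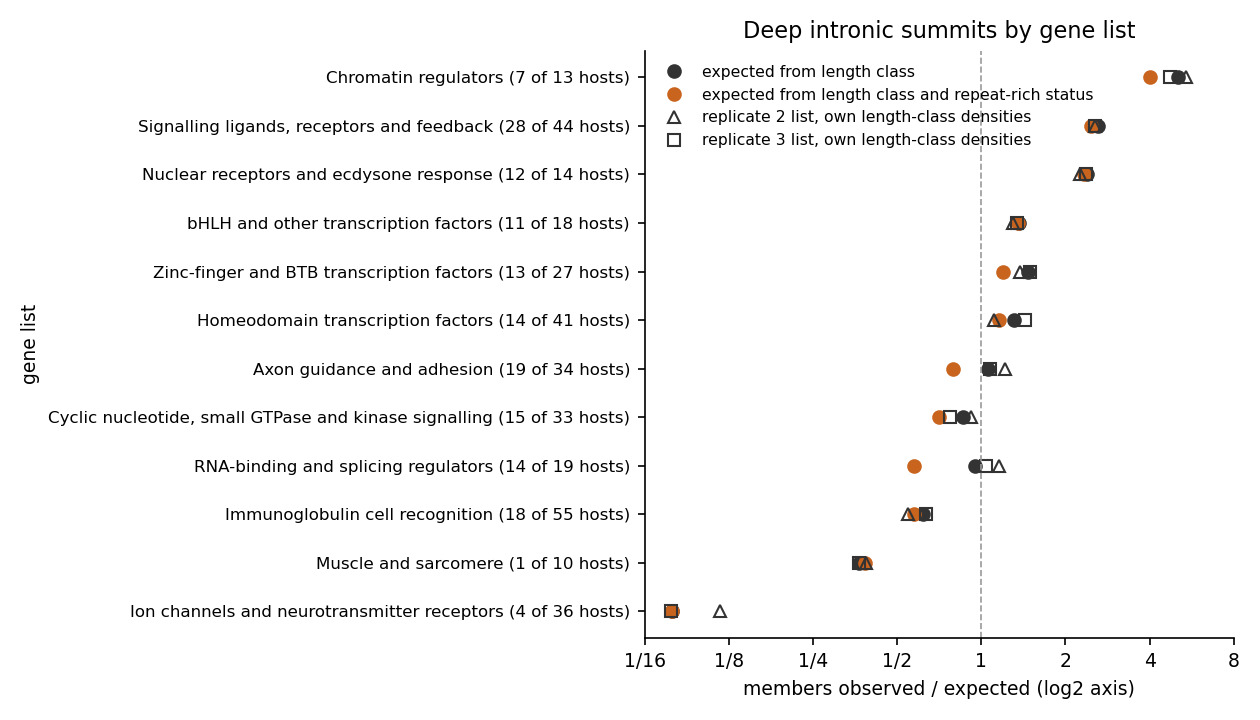
Members observed over members expected (log2 axis) for the 12 lists with at least 10 eligible genes, with hosts and eligible genes beside each name. Filled points use the reproducible list with densities by length class, alone or split by repeat-rich status, and open symbols use each replicate's list with its own densities. Chromatin regulators read 5.04 and 4.0, and ion channels 0.0785 and 0.0786. Of all eligible genes, 35.4% were hosts.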

How the data were processed

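ChIP-seq of Ets96B-eGFP was read from 4 deposited peak lists in dm6. The authors' description files trace a replicate's list to its own alignment plus a control, the pooled list to both alignments plus the control, and the reproducible list to a comparison by irreproducible discovery rate. Aligner, peak caller and threshold names: not given in the sources used here, as no header or label holds them. Each peak's signal value is the authors', as deposited, with its normalization not stated, and ranked peaks within a list only. The deposited −log10 q-value was 4.42 for every reproducible peak and was not used.

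Summits (start plus offset) were placed on Ensembl release 115 (19252 protein-coding TSSs of 13945 genes on 6 arms) and on the RefSeq sequence of the same assembly. No peak lay on Y. Intervals are exact Clopper-Pearson and Poisson at 95%. The spread between replicates comes from repeating each result on the 8015 strongest peaks of a replicate. Words were searched within 50 bp of summits and of points 400 bp to either side. Genes named are the 10 strongest members, the 10 hosts with most members, the 10 densest with at least 5, the 10 largest eligible genes without one, 3 members to either side of the limit, and up to 3 hosts and 2 empty genes per list. Exceptions are said to be chosen after the values were seen, and lilli, Bicra and the second Hr4 summit were picked for their words. The members and lists were chosen with earlier results of these data known. Repeat-rich windows, six-letter words and first introns by distance were added after the data were seen. List symbols matched 641 genes, 347 of them eligible, and 2 matched none. Density and word code was tested on simulated summits. Python 3.11.15, numpy 2.4.6, pandas 2.3.3 and scipy 1.17.1 were used.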

Additional observations from a re-analysis of the deposited data

How the results depend on the processing

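No paired analysis was possible because the study has 1 group and no groups to pair. No choice among those tried turned a main ratio across 1. Of the alternative values of the main results, 34 moved by less than the SD of the replicate lists (for the overlap, within its interval) and 38 moved further. That SD rests on 2 lists, whose own values are among the alternatives, so such counts describe and do not measure replicate error. The density and host share of the stronger part of the list, given below, are among the 38. With deep set at more than 2000 bp the share was 30.6%, the density 58.1 per Mb, the signal ratio 0.963, the host share 32.9% and the density ratio of long to mid-length genes 0.425. At more than 10000 bp these were 10.2%, 41.9, 0.895, 36.3% and 0.366, and the ratio of deep to near density was 0.507. In the stronger part of the list, above its median signal value, the share was 17.9% and overlap with both replicates 99.4%. The deep to near ratio was 0.513 and the long to mid ratio 0.329. The density of that part was 23.8 and its host share 23%, but it has fewer summits over the same bases and genes, which by itself lowers both. Counting TSSs of all genes gave a share of 17.0% and a host share of 34.6%. Summits within 100 bp gave 94.9% in both replicates and a 50% reciprocal overlap 66.2%. A 10000 bp minimum of deep intron gave a host share of 51.1% and a ratio of 0.421, and the longest host alone gave 34.6%. The replicate lists ranged from 18.5% to 19.4%, 49.0 to 51.5 per Mb and 0.381 to 0.388.

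Leaving out repeat-rich windows (added after seeing the data) gave a density of 65.4, a deep to near ratio of 0.708, a host share of 38.4% and a long to mid ratio of 0.744. Other masked windows gave ratios of 0.871 (500 kb at 20%), 0.756 (500 kb at 30%) and 0.720 (100 kb at 25%). Windows of annotated elements gave 0.443 (500 kb at 10%), 0.448 (100 kb at 10%) and 0.423 (100 kb at 20%), close to the 0.403 without any, so the rise to 0.744 depends on how repeats are defined. The cause was not tested. The axon guidance list turned from 1.06 to 0.990 in that stronger part and 0.794 with repeat status. The RNA-binding list turned from 0.953 to between 1.04 and 1.16 in the replicate lists and to 1.02 at 2000 bp. Of the other 230 values for words, lists and the density beyond 50 kb, 135 stayed within the replicate SD and 90 moved without turning.

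With 2 libraries of 1 group and unknown depth, absence of a summit says only that none passed the authors' threshold.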
